A study of Homo sapiens with 9 samples.

Results

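The genes described here are 39 genes of the DNA damage checkpoint and of DNA repair, read from a count table of 58734 genes in HEK293T cells after knockdown of SIN3A or SIN3B. They were chosen by name as genes of homologous recombination, the Fanconi pathway, mismatch repair and checkpoint kinase signalling. Their Ensembl identifiers were matched to symbols in GENCODE 29, and each of the 39 had 1 row. A filter on low counts left 16686 genes to test, 38 of the 39 among them. FANCF, an adaptor of the Fanconi core complex, had 0 to 16 counts per library, was not tested and gets no fold change.

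HEK293T is a line of human embryonic kidney origin with the large T antigen of SV40, a viral protein that binds p53 and the retinoblastoma family proteins, in every group. One group of 3 libraries came from cells given siRNA against SIN3A, one from cells given siRNA against SIN3B and one from cells given a control siRNA, each at 10 nM for 36 h, in the absence of any labelled DNA-damaging agent. SIN3A and SIN3B are paralogous scaffold proteins of a histone deacetylase corepressor complex. The labels name no individual siRNA sequence and do not say whether the 3 libraries of a group were separate transfections, so the p-values rest on a spread between libraries that could be purely technical. Both knockdowns were set against the same 3 control libraries.

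A double-strand break is sensed by the MRE11, RAD50 and NBN complex, which activates the kinase ATM. Resected single-stranded DNA instead recruits ATR through its partner ATRIP, with TOPBP1 as activator. The kinases CHEK2 (downstream of ATM) and CHEK1 (downstream of ATR) then hold the cell cycle. Repair by homologous recombination runs through BRCA1 with BARD1, then PALB2 and BRCA2. The Fanconi pathway removes crosslinks between DNA strands. Its core complex adds ubiquitin to FANCD2 and FANCI, and mismatch repair corrects errors left by DNA polymerases. Many of these genes are transcribed most strongly in dividing cells around S phase.

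Deposited counts summed to 22542798 to 27084884 per library. At least 98% of the nonzero counts in each library were multiples of 4, so the floor that a count of 0 allows was set at 3 units of 4, or 12 counts, which is 0.443 to 0.532 CPM and covers counting error only. CPM means counts scaled to a common library size, with TMM factors for every level given below. The targets fell in their own knockdown: SIN3A averaged 47.3 ± 2.5 CPM in SIN3A knockdown and 145.4 ± 4.01 CPM in control, and SIN3B averaged 55.1 ± 3.62 CPM in SIN3B knockdown and 96.1 ± 4.71 CPM in control (SD, n = 3 each). Pairs of SIN3A knockdown libraries differed more (chi-square over its degrees of freedom 3.53 to 7.37) than pairs of SIN3B knockdown libraries (1.42 to 1.98) or control libraries (1.57 to 1.86), and replicate 1 of SIN3A knockdown was the most distant. All 8 HEK293T marker genes were detected. Of 14 markers of blood, fibroblast, endothelial, liver and squamous cells, 5 were at 0 in all 9 libraries and 11 stayed under 1 CPM.

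Few of the repair genes moved far. In these bulk libraries a changed share of cells in a cell-cycle phase and a changed level per cell cannot be told apart. SIN3A knockdown raised 6 of the 38 tested genes and lowered 3, at a Benjamini-Hochberg adjusted p under 0.05 in edgeR's quasi-likelihood test. That is 23.7% of them, against 22.7% of all tested genes (12.0% higher and 10.8% lower). SIN3B knockdown raised 7 and lowered 7, or 36.8%, against 23.6% of all tested genes (12.0% higher and 11.6% lower). Most of the set is well expressed, and expression sets how often a gene can be called. Among the 35 with a mean above 10 CPM in control, 25.7% passed in SIN3A knockdown and 37.1% in SIN3B knockdown, against 30.6% and 34% of the 9970 tested genes above that level. In this fit of 9 libraries the counts of called members therefore lay near the background of comparably expressed genes in both knockdowns. In SIN3B knockdown that did not hold in a fit of only its 3 libraries and the 3 controls, which called 14 members higher and 9 lower. That was 60.5% of the 38, against 31.7% of all tested genes, and above 10 CPM 62.9% of the 35, against 45.6% of the 9970. The same kind of fit for SIN3A knockdown called 13.2% of the 38, against 18.5% of all tested genes. The median log2 fold change was 0.08 in SIN3A knockdown and 0.07 in SIN3B knockdown for the 38 genes, against 0.00 and -0.02 for all tested genes. The median size of a change, without its sign, was 0.17 in SIN3A knockdown and 0.26 in SIN3B knockdown for the 38 genes, against 0.26 and 0.25 for all tested genes.

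**Figure D1:**
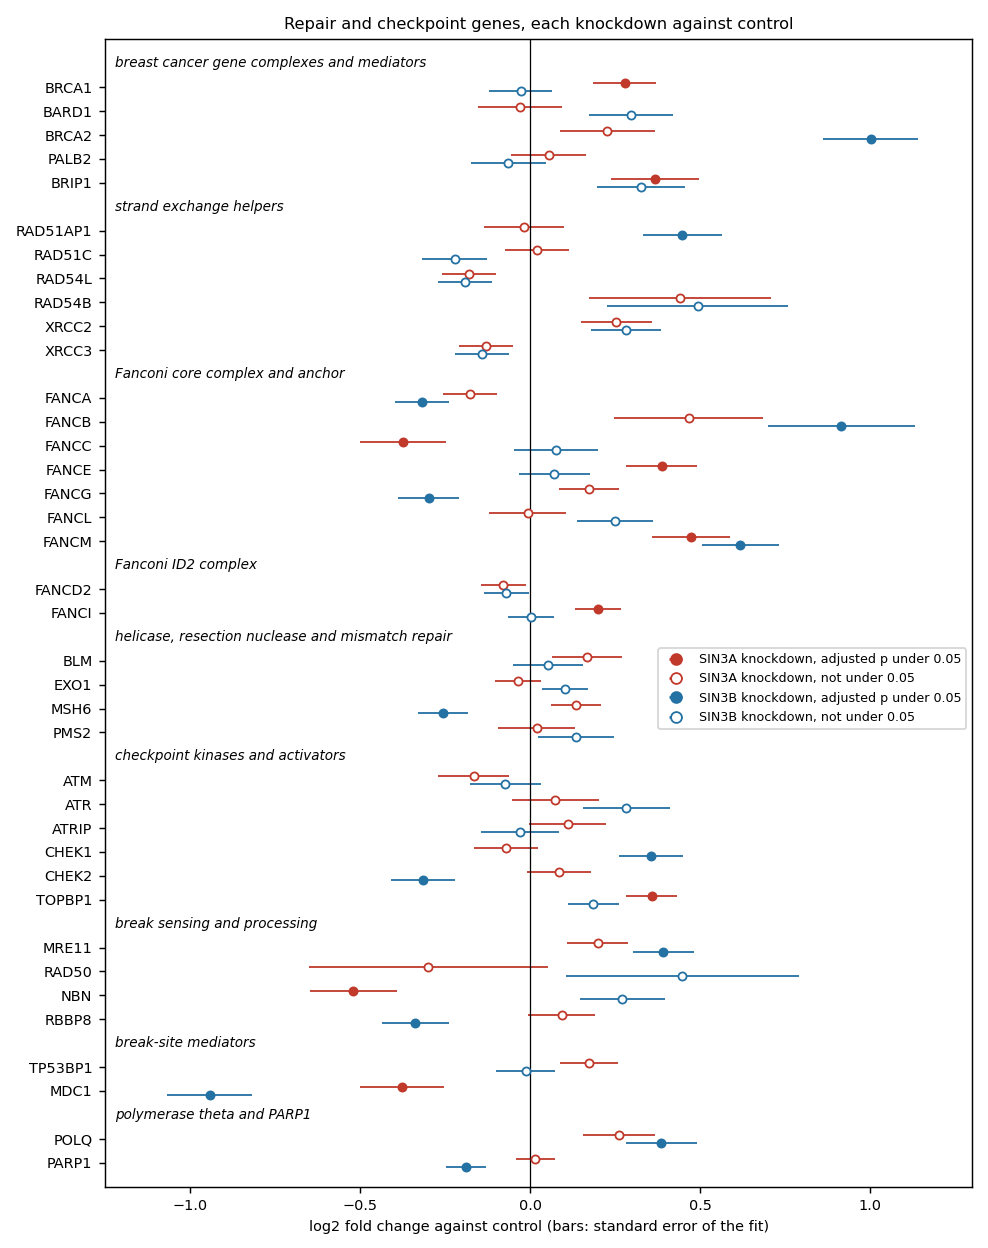
Log2 fold change of the 38 tested repair and checkpoint genes in SIN3A knockdown (red, upper of each pair) and SIN3B knockdown (blue, lower) against control, with bars for the standard error of the fit and filled points at an adjusted p under 0.05. The changes lie between -0.94 for MDC1 and 1.00 for BRCA2, both in SIN3B knockdown, and filled points stand on both sides of 0 within several of the labelled groups.

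FANCM rose and MDC1 fell in both knockdowns, against the shared controls. The other 19 called genes passed against control in 1 knockdown, which alone does not show that the knockdowns differ, and 0 genes were called in opposite directions. The remaining 17 genes were called in no comparison of this fit, with log2 fold changes against control of -0.30 to 0.49. Some of them passed under other settings, as given below. For some of these too, such as FANCD2 and RAD54L in both knockdowns, knockdown and control libraries did not overlap. A lack of overlap, given below for called genes, is thus a description and adds no support to a call. Its share over all tested genes is not given. Of the 23 calls against control, those that held under every one of 19 alternative settings, 9 of which left out a library, were NBN, TOPBP1 and FANCM in SIN3A knockdown and MDC1, BRCA2, FANCB and FANCM in SIN3B knockdown. The counts moved with single libraries. In SIN3A knockdown 3 members were higher without control replicate 2, control replicate 3 or SIN3B knockdown replicate 3. 1 was lower without control replicate 2, control replicate 3, SIN3B knockdown replicate 1 or SIN3B knockdown replicate 3. In SIN3B knockdown 3 were lower without control replicate 2, control replicate 3, SIN3B knockdown replicate 1 or SIN3B knockdown replicate 2, and 4 without SIN3B knockdown replicate 3. With upper-quartile scaling factors 3 were higher and 5 lower in SIN3A knockdown, and the higher share of all SIN3A knockdown calls was 36.8%, against 52.7% with TMM.

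In the BRCA group, BRCA2, a mediator of homologous recombination that acts on resected DNA, had the largest rise of the set. BRCA2 (chr13:32315474-32400266, plus strand, GRCh38) stood at 34.6, 48.6 and 46.4 CPM in SIN3B knockdown libraries, against 22.9, 20.7 and 21.2 CPM in control. Every SIN3B knockdown library was above every control library, and the log2 fold change was 1.00 ± 0.14 (SE; adjusted p = 4.7e-05), or 2.00-fold. In SIN3A knockdown BRCA2 had 30.5, 21.1 and 24.3 CPM, which overlapped the control, with a log2 fold change of 0.23 ± 0.14 (adjusted p = 0.271). The difference between the knockdowns was itself called, at -0.77 ± 0.14 for SIN3A over SIN3B knockdown (adjusted p = 0.000319). BRCA1 (chr17:43044295-43170245, minus strand), the ubiquitin ligase subunit that promotes resection, moved in the other knockdown. It had 108.8, 101.0 and 102.2 CPM in SIN3A knockdown, against 91.0, 84.0 and 82.3 CPM in control. The groups did not overlap and the log2 fold change was 0.28 ± 0.09 (adjusted p = 0.0364). The BRCA1 call was lost, at 0.26 to 0.32, without any 1 of the control libraries, without SIN3A knockdown replicate 1 or without SIN3B knockdown replicate 3. In SIN3B knockdown BRCA1 averaged 84.1 ± 12.1 CPM, against 85.8 ± 4.6 CPM in control, a log2 fold change of -0.03. BRCA1 was higher in SIN3A than in SIN3B knockdown by 0.31, a call that was lost at 0.21 without SIN3B knockdown replicate 1 and at 0.31 without its replicate 3.

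BRIP1, the helicase that binds BRCA1, rose in SIN3A knockdown by 0.37 ± 0.13 on the log2 scale, with an adjusted p of 0.046 that sat at the edge of the threshold. Its call was lost, at 0.27 to 0.44, without any 1 control library, SIN3A knockdown replicate 1 or 3, or SIN3B knockdown replicate 2 or 3. BARD1, the partner of BRCA1, had a log2 fold change of -0.03 in SIN3A knockdown and 0.30 in SIN3B knockdown. PALB2, the bridge between BRCA1 and BRCA2, had 0.05 in SIN3A knockdown and -0.06 in SIN3B knockdown. Neither gene was called in the fit of 9 libraries. BRIP1 was at 0.33 in SIN3B knockdown (adjusted p = 0.0751), and its direct difference between the knockdowns was 0.04 (adjusted p = 0.852). In that fit BRCA2 was the 1 gene of the 5 in this group to pass in SIN3B knockdown. The 6-library fit also called BRIP1 (0.33) and BARD1 (0.30) higher there. Both passed too without SIN3A knockdown replicate 3, and BRIP1 with no filter or without SIN3B knockdown replicate 1.

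Among the 6 genes that act with or after BRCA2 in strand exchange, RAD51AP1, which stimulates that step, was called. RAD51AP1 had 46.2, 59.4 and 54.5 CPM in SIN3B knockdown, against 41.3, 40.8 and 35.3 CPM in control, and the groups did not overlap. Its log2 fold change was 0.45 ± 0.12 (adjusted p = 0.00828), and the call was lost at 0.38 without control replicate 3 and at 0.36 without SIN3B knockdown replicate 2. In SIN3A knockdown it was at -0.02 against control. It was 0.47 lower on the log2 scale in SIN3A than in SIN3B knockdown (adjusted p = 0.0054), which held in every leave-one-out fit. RAD51C, which acts in a complex with XRCC3, had log2 fold changes of 0.02 in SIN3A knockdown and -0.22 in SIN3B knockdown. XRCC2 and XRCC3, of the same protein family, had 0.25 and -0.13 in SIN3A knockdown and 0.28 and -0.14 in SIN3B knockdown. The motor protein RAD54L had -0.18 in SIN3A knockdown and -0.19 in SIN3B knockdown, and none of these 4 genes was called in the fit of 9 libraries. XRCC2 was close to the threshold in SIN3B knockdown (adjusted p = 0.0567). It was called higher there in DESeq2, in the 6-library fit, with no low-count filter and with counts divided by 4. The same held without SIN3A knockdown replicate 1 or 3. In SIN3A knockdown XRCC2 was called higher with no filter or without replicate 1. The 6-library fit called RAD51C and RAD54L lower in SIN3B knockdown. RAD54B, the relative of RAD54L, was near the bottom of the range at 3.45 ± 0.41 CPM in SIN3A knockdown, 3.58 ± 0.22 CPM in SIN3B knockdown and 2.54 ± 0.78 CPM in control, and shares 59.1% of its exon bases with FSBP on the same strand.

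**Figure D2:**
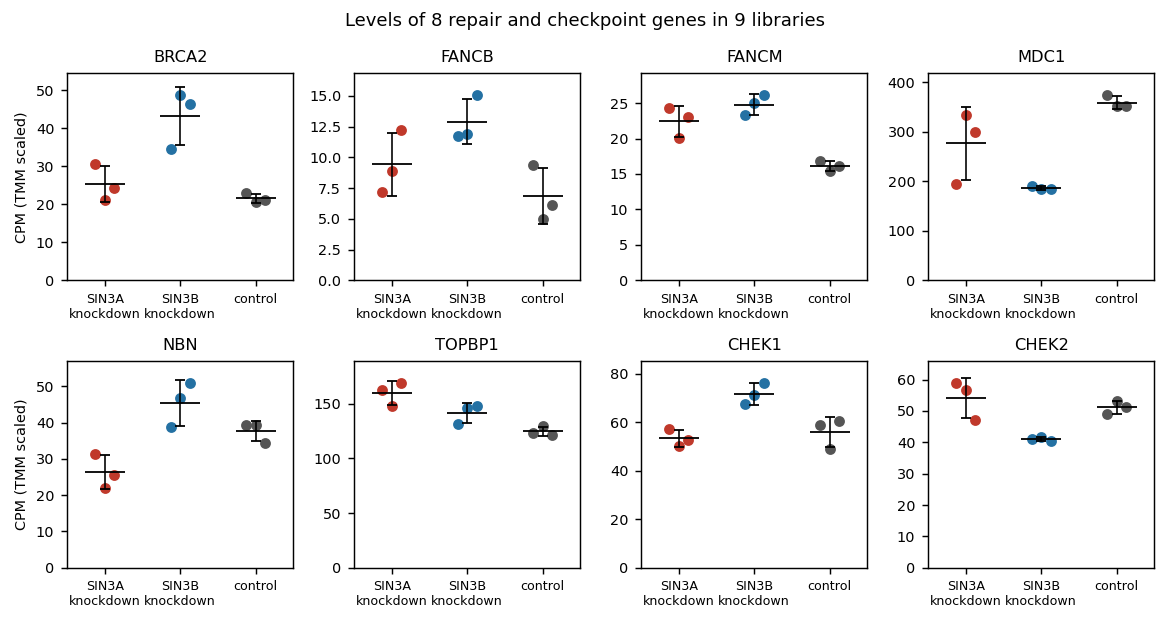
CPM (TMM scaled) of 8 repair and checkpoint genes in the 3 SIN3A knockdown, 3 SIN3B knockdown and 3 control libraries, with a wide bar for the mean and whiskers for the SD. BRCA2 and CHEK1 stand highest in SIN3B knockdown and NBN lowest in SIN3A knockdown, and SIN3A knockdown replicate 1 of MDC1 lies with the SIN3B knockdown libraries at 194.6 CPM.

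The Fanconi core complex did not move as a unit. FANCM (chr14:45135940-45200890, plus strand), the translocase that anchors the core complex on DNA, rose in both knockdowns. It had 24.3, 20.0 and 23.0 CPM in SIN3A knockdown and 23.2, 25.0 and 26.1 CPM in SIN3B knockdown, against 16.8, 15.5 and 16.1 CPM in control. All 6 knockdown libraries were above all 3 controls. The log2 fold change was 0.47 ± 0.11 in SIN3A knockdown (adjusted p = 0.00567) and 0.62 ± 0.11 in SIN3B knockdown (adjusted p = 0.000609). The direct difference between the knockdowns was -0.14 ± 0.11 (adjusted p = 0.377). FANCB (chrX:14835961-14873069, minus strand), a subunit of the catalytic module with FANCL, had 11.8, 11.9 and 15.0 CPM in SIN3B knockdown, against 9.37, 5.01 and 6.14 CPM in control. The groups did not overlap, and FANCB rose by 0.92 ± 0.22 on the log2 scale (adjusted p = 0.00439). In SIN3A knockdown FANCB had 7.17, 8.91 and 12.2 CPM, which overlapped both other groups, and neither its difference from control (0.47, adjusted p = 0.138) nor from SIN3B knockdown (-0.45, adjusted p = 0.13) was called.

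Smaller changes in both directions were called among the other core subunits. FANCA and FANCG, which bind each other in the core complex, both fell in SIN3B knockdown. FANCA had 120.5, 111.2 and 111.6 CPM there, against 146.9, 138.8 and 142.7 CPM in control, a log2 fold change of -0.32 ± 0.08 (adjusted p = 0.00624). FANCG had 67.3, 57.6 and 61.2 CPM in SIN3B knockdown, against 71.6, 76.3 and 80.9 CPM in control, a log2 fold change of -0.30 ± 0.09 (adjusted p = 0.0201). No library of either gene overlapped between these groups. The FANCG call was lost, at -0.29 to -0.25, without control replicate 2 or 3 or SIN3B knockdown replicate 2 or 3. FANCG was at 0.17 in SIN3A knockdown (not called) and was 0.47 ± 0.09 higher there than in SIN3B knockdown (adjusted p = 0.000604), and FANCA was at -0.18 in SIN3A knockdown (not called). FANCE, the subunit that contacts FANCD2, rose in SIN3A knockdown by 0.39 ± 0.10 (adjusted p = 0.012), a call lost at 0.34 without control replicate 1 and at 0.30 without SIN3A knockdown replicate 2. FANCE was also 0.32 higher in SIN3A than in SIN3B knockdown, which was lost at 0.23 to 0.33 without SIN3A knockdown replicate 2 or SIN3B knockdown replicate 1 or 2.

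FANCC, which pairs with FANCE and FANCF, fell in SIN3A knockdown by 0.37 ± 0.13 on the log2 scale (adjusted p = 0.0378). That call was lost, at -0.37 to -0.24, without control replicate 2 or 3, SIN3A knockdown replicate 2 or any 1 of the SIN3B knockdown libraries. Against SIN3B knockdown FANCC was lower by 0.45 (adjusted p = 0.0111), lost at -0.32 without SIN3A knockdown replicate 2 and at -0.39 without SIN3B knockdown replicate 1. FANCL, the ubiquitin ligase of the core complex, had log2 fold changes of -0.01 in SIN3A knockdown and 0.25 in SIN3B knockdown and was not called. Of the 2 substrates, FANCI rose in SIN3A knockdown to 264.5 ± 4.3 CPM, against 230.5 ± 13.9 CPM in control, by 0.20 ± 0.07 (adjusted p = 0.0409). The FANCI call was lost, at 0.18 to 0.21, without control replicate 2 or 3, SIN3A knockdown replicate 2 or 3 or SIN3B knockdown replicate 2 or 3. FANCI was 0.20 higher in SIN3A than in SIN3B knockdown too, lost at 0.17 to 0.23 without SIN3A knockdown replicate 2 or any 1 SIN3B knockdown library. FANCD2 was at -0.08 in SIN3A knockdown and -0.07 in SIN3B knockdown and was not called.

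In the checkpoint, the effector kinases CHEK1 and CHEK2 took different directions in SIN3B knockdown. CHEK1 (chr11:125625136-125676255, plus strand) had 67.4, 71.3 and 76.3 CPM in SIN3B knockdown, against 58.8, 49.0 and 60.4 CPM in control. The groups did not overlap, and CHEK1 rose by 0.36 ± 0.09 on the log2 scale (adjusted p = 0.00949), a call lost at 0.28 without control replicate 2 and at 0.31 without SIN3B knockdown replicate 3. CHEK2 (chr22:28687743-28742422, minus strand) had 41.1, 41.7 and 40.5 CPM in SIN3B knockdown, against 48.9, 53.0 and 51.4 CPM in control, again with no overlap. CHEK2 fell by 0.31 ± 0.10 on the log2 scale (adjusted p = 0.0205), a call lost at -0.33 to -0.28 without control replicate 2 or 3 or any 1 SIN3B knockdown library. In SIN3A knockdown CHEK1 had 57.2, 50.2 and 52.6 CPM and CHEK2 had 59.0, 56.6 and 47.0 CPM. Both overlapped control, with a log2 fold change of -0.07 for CHEK1 and 0.08 for CHEK2. Between the knockdowns CHEK1 was 0.43 lower (adjusted p = 0.00217) and CHEK2 0.40 higher (adjusted p = 0.00381) in SIN3A than in SIN3B knockdown, and both differences held in every leave-one-out fit. CHEK2 has near-identical pseudogene copies, so its level is uncertain.

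TOPBP1 (chr3:133598175-133662380, minus strand), which activates ATR, rose in SIN3A knockdown. It had 162.4, 147.9 and 169.2 CPM there, against 123.6, 129.4 and 121.3 CPM in control, with no overlap and a log2 fold change of 0.36 ± 0.08 (adjusted p = 0.00215). In SIN3B knockdown it had 131.4, 145.7 and 148.3 CPM, at 0.18 ± 0.07 (adjusted p = 0.0846), and the knockdowns were not called different from each other (0.17, adjusted p = 0.096). The apical kinases were not called in any comparison of the fit of 9 libraries, although ATM was when GC content and length were offset, as given with base composition. ATR was called higher in SIN3B knockdown in the 6-library fit (0.28) and without SIN3B knockdown replicate 1 (0.39). Without SIN3A knockdown replicate 1 it was called lower in SIN3A than in SIN3B knockdown (-0.35). ATM was at -0.17 in SIN3A knockdown and -0.07 in SIN3B knockdown, against control. ATR was at 0.07 in SIN3A knockdown and 0.28 in SIN3B knockdown, and its partner ATRIP at 0.11 in SIN3A knockdown and -0.03 in SIN3B knockdown.

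Among genes that sense and process breaks, NBN fell in SIN3A knockdown. NBN (chr8:89933336-90003228, minus strand), the subunit that brings ATM to the break, had 31.3, 22.1 and 25.7 CPM in SIN3A knockdown, 38.7, 46.7 and 51.0 CPM in SIN3B knockdown and 39.4, 39.3 and 34.4 CPM in control. All 3 SIN3A knockdown libraries were below every library of the other groups. The log2 fold change in SIN3A knockdown was -0.52 ± 0.13 against control (adjusted p = 0.00616) and -0.79 ± 0.13 against SIN3B knockdown (adjusted p = 0.000117). In SIN3B knockdown NBN was at 0.27 ± 0.12 against control (adjusted p = 0.131). Its partner MRE11, the nuclease of the complex, had 66.1, 75.0 and 78.4 CPM in SIN3B knockdown, against 55.6, 52.4 and 59.3 CPM in control, and rose by 0.39 ± 0.09 on the log2 scale (adjusted p = 0.0036), with no overlap. MRE11 was at 0.20 in SIN3A knockdown and was not called. The third subunit, RAD50, was counted at 1.94 ± 0.79 CPM in SIN3A knockdown, 3.28 ± 0.82 CPM in SIN3B knockdown and 2.40 ± 0.75 CPM in control. In GENCODE 29, 79.7% of the exon bases of RAD50 are shared with AC116366.3 on the same strand, so its counts are uncertain.

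RBBP8, which activates MRE11 to start resection, fell in SIN3B knockdown. It had 59.5, 74.4 and 78.2 CPM there, against 90.0, 94.2 and 83.7 CPM in control, with no overlap and a log2 fold change of -0.34 ± 0.10 (adjusted p = 0.0171). That call was lost at -0.33 without control replicate 1, at -0.29 without control replicate 2 and at -0.22 without SIN3B knockdown replicate 1. RBBP8 was 0.43 ± 0.10 higher in SIN3A than in SIN3B knockdown (adjusted p = 0.00288), which held in every leave-one-out fit. The nuclease EXO1, which extends resection, and the helicase BLM were not called in any comparison. EXO1 was at -0.04 in SIN3A knockdown and 0.10 in SIN3B knockdown, and BLM was at 0.17 in SIN3A knockdown and 0.05 in SIN3B knockdown.

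MDC1 (chr6:30699807-30717889, minus strand), the scaffold that binds phosphorylated H2AX at breaks, had the largest fall of the set. It had 194.6, 334.4 and 300.4 CPM in SIN3A knockdown and 190.9, 184.2 and 185.2 CPM in SIN3B knockdown, against 373.4, 352.4 and 351.4 CPM in control. All 6 knockdown libraries were below all 3 controls. The SIN3B knockdown libraries were tightly grouped, with a log2 fold change of -0.94 ± 0.12 (adjusted p = 2.69e-05), or 0.52-fold, which held in every alternative. In SIN3A knockdown the log2 fold change was -0.38 ± 0.12 (adjusted p = 0.033), and without replicate 1 it was -0.16 (adjusted p = 0.0458). The call was lost, at -0.38 to -0.35, without any 1 control library or without SIN3B knockdown replicate 1 or 3. The DESeq2 fit, the fit of only the 6 libraries compared and limma on log2 FPKM also did not call it. MDC1 was higher in SIN3A than in SIN3B knockdown by 0.57 ± 0.12 (adjusted p = 0.00195). The other break-site mediator, TP53BP1, which limits resection, was at 0.17 in SIN3A knockdown and -0.01 in SIN3B knockdown and was not called.

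MSH6, a subunit of the complex that recognises single-base mismatches, fell in SIN3B knockdown. It had 159.3, 160.7 and 176.9 CPM there, against 195.2, 191.6 and 206.9 CPM in control, with a log2 fold change of -0.26 ± 0.07 (adjusted p = 0.0153) and no overlap. The call was lost, at -0.24 to -0.22, without control replicate 3 or SIN3B knockdown replicate 1 or 2. MSH6 was 0.39 ± 0.07 higher in SIN3A than in SIN3B knockdown (adjusted p = 0.000559). PMS2, the nuclease subunit of the mismatch repair complex, was at 0.02 in SIN3A knockdown and 0.13 in SIN3B knockdown, was not called, and has pseudogene copies that make its level uncertain. POLQ, the polymerase of microhomology end joining, rose in SIN3B knockdown by 0.39 ± 0.10 (adjusted p = 0.0111), lost at 0.31 without control replicate 3 and at 0.28 without SIN3B knockdown replicate 2. POLQ was at 0.26 in SIN3A knockdown and was not called there. PARP1, the break-sensing enzyme that makes poly(ADP-ribose), had the highest level of the set, at 198 CPM per kb of merged exon in control against a median of 10.2 over the 38 genes. PARP1 fell by 0.19 ± 0.06 in SIN3B knockdown (adjusted p = 0.0228), lost at -0.21 to -0.16 without control replicate 2 or 3 or any 1 SIN3B knockdown library.

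Set directly against SIN3B knockdown, SIN3A knockdown had 9 of the 38 genes higher and 5 lower, or 36.8%, against 27.1% of all tested genes (14.4% higher and 12.6% lower). Above 10 CPM in control the shares were 40% of the 35 and 37.4% of the 9970, so here too the count lay near that of comparably expressed genes. The 9 higher genes were BRCA1, FANCE, FANCG, FANCI, MSH6, CHEK2, RBBP8, MDC1 and PARP1, by 0.20 to 0.57 on the log2 scale. The 5 lower genes were BRCA2, RAD51AP1, FANCC, CHEK1 and NBN, at -0.79 to -0.43. FANCG, MSH6, CHEK2, RBBP8, MDC1, BRCA2, RAD51AP1, CHEK1 and NBN, 9 of these 14 calls, held under all 19 alternatives. Without SIN3A knockdown replicate 3 the number lower was 8. The direct PARP1 call of 0.20 was lost at 0.19 without SIN3A knockdown replicate 2 or SIN3B knockdown replicate 2.

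**Figure D3:**
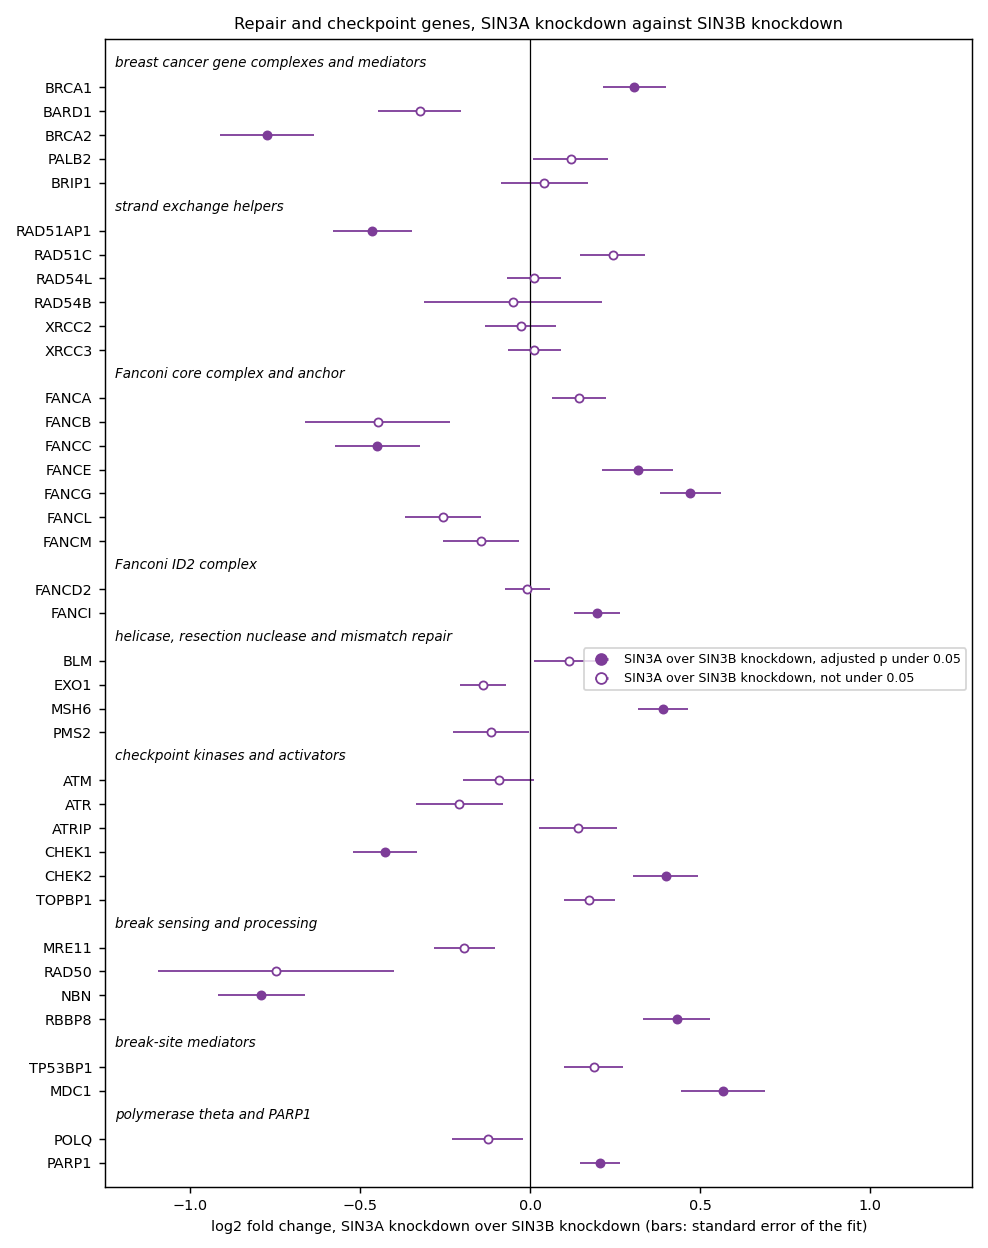
Log2 fold change of the 38 tested repair and checkpoint genes in SIN3A knockdown over SIN3B knockdown, with bars for the standard error of the fit and filled points at an adjusted p under 0.05. Filled points to the left (lower in SIN3A knockdown) run to -0.79 at NBN and those to the right to 0.57 at MDC1.

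In SIN3B knockdown the log2 fold changes were higher for genes of low GC content, with exceptions among the called genes. The 38 genes had a median GC content of 41.7% in their longest transcript, against 48.6% for all tested genes, and a median merged exon length of 6922 bases, against 4456. In SIN3B knockdown the 19 genes under the median GC of the 38 had a median log2 fold change of 0.33 and the 19 over it had -0.06. Across the 38 genes Spearman's rho of GC with log2 fold change was -0.71 in SIN3B knockdown, against -0.40 across 16680 tested genes with a GC value, and -0.29 in SIN3A knockdown, against -0.19. For SIN3A over SIN3B knockdown it was 0.59, against 0.18. All these values share the same 9 libraries, and genes are not independent replicates, so they are given as a description. BRCA2, FANCB and RAD51AP1, higher in SIN3B knockdown, had GC contents of 36.3%, 36.4% and 36.1%, and MDC1, FANCA and FANCG, lower there, had 53.3%, 55.4% and 58.1%. RBBP8 and MSH6, at 40.02% and 40.77%, lay under the median of the 38 and were nonetheless called lower in SIN3B knockdown. In SIN3A knockdown NBN, at 37.4%, was called lower and FANCE, at 57.9%, was called higher. When offsets for the GC and length of each gene entered the fit, the SIN3B knockdown calls of BRCA2 (0.63), FANCB (0.58), FANCM (0.32), CHEK1 (0.24), MDC1 (-0.80), MSH6 (-0.41) and RBBP8 (-0.52) remained. Those of RAD51AP1 (0.08), MRE11 (0.14), POLQ (0.25), CHEK2 (-0.21), FANCA (-0.15), FANCG (-0.10) and PARP1 (-0.09) did not. In SIN3A knockdown the calls of BRIP1 (0.22) and FANCC (-0.25) were lost with these offsets. The offsets also brought calls. In SIN3A knockdown ATM (-0.26), FANCG (0.28) and TP53BP1 (0.25) then passed, and in SIN3B knockdown ATM (-0.33, against -0.07 without offsets), RAD51C (-0.31) and FANCE (0.27, against 0.07 without offsets) did. For SIN3A over SIN3B knockdown RAD51C (0.33), TOPBP1 (0.25) and TP53BP1 (0.24) passed, while the direct call of FANCE was lost. With the offsets 26.3% of the 38 were called in SIN3A knockdown, 26.3% in SIN3B knockdown and 42.1% directly. Over all tested genes these shares were 27.7%, 22.6% and 29.3%. Above 10 CPM in control they were 28.6%, 25.7% and 45.7% of members, against 38.4%, 33.6% and 40.6% of tested genes. The offsets also moved the median over all tested genes, to 0.04 in SIN3A and 0.03 in SIN3B knockdown. There 64.2% and 59.0% of all calls were higher. Beyond this fit, the part of base composition in these changes was not tested.

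**Figure D4:**
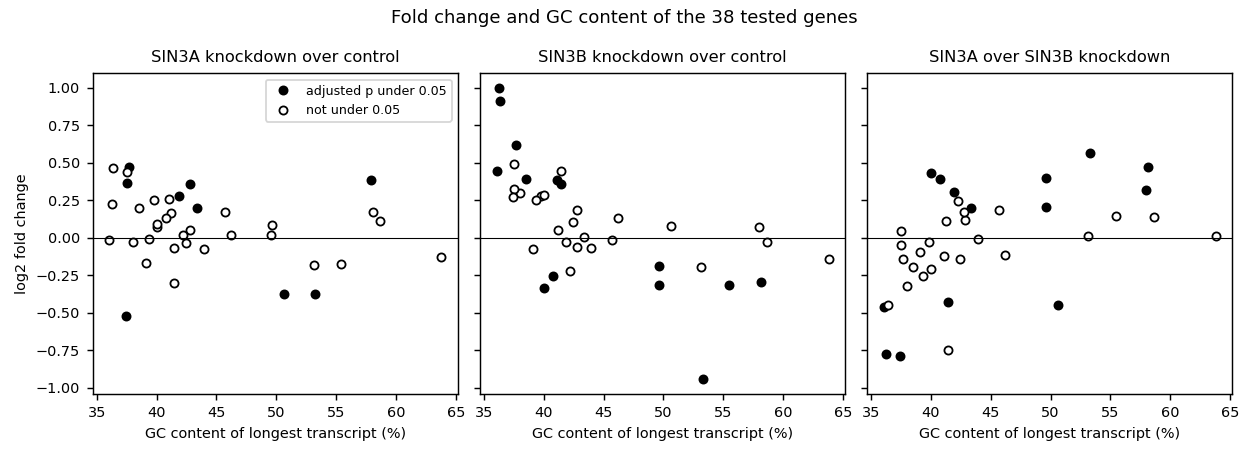
Log2 fold change of the 38 tested genes against the GC content of their longest transcript (%), in SIN3A knockdown over control, SIN3B knockdown over control and SIN3A over SIN3B knockdown, with filled points at an adjusted p under 0.05. In the middle panel the points fall from left to right, and the genes under the median GC have a median of 0.33 and those over it -0.06.

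Promoters of the set were scanned for 2 motifs in RefSeq windows of GRCh38.p14 that run from 250 bases before to 50 after a gene's start, with entries for 36 of the 39 genes. E2F-type sites were searched as TTTCCCGC, TTTGGCGC, TTTCGCGC and TTTGCCGC on both strands, because E2F factors are known regulators of many S-phase genes. They stood in 8 of the 36 promoters, or 22.2%, against 591 of 11188 promoters of tested genes, or 5.28%. The 8 genes were EXO1, MSH6, FANCD2, TOPBP1, PMS2, XRCC2, FANCC and FANCA. In SIN3A knockdown TOPBP1 was called higher and FANCC lower, in SIN3B knockdown MSH6 and FANCA were called lower, and the other 4 were not called, so the 8 did not share a direction. TTTGAA, the core of the CHR element of genes expressed late in the cell cycle, was in 5 of 36 promoters, or 13.9%, against 9.45% of promoters of tested genes. Of these 5, BRIP1 was called higher and FANCC lower in SIN3A knockdown, POLQ higher in SIN3B knockdown and MDC1 lower in both. ATM was not called, so the 5 did not share a direction either. Windows of 30 bases around the match are shown for the called genes with an E2F-type match near the start. The second motif is shown for MDC1 alone. Motifs are in capitals, and windows read 5′ to 3′ on the gene's strand.
TOPBP1 (chr3:133661930-133661959, minus strand): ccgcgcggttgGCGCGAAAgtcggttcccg
MSH6 (chr2:47783137-47783166, plus strand): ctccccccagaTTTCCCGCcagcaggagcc
FANCC (chr9:95317737-95317766, minus strand): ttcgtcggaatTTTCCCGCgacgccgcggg
MDC1 (chr6:30717393-30717422, minus strand): gacaccacctaTTTGAActctaagggggcg
The TOPBP1 match lies on the opposite strand. A match describes these letters in this window and says nothing about binding.

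Sequences of 7 bases in 3′ UTRs were also counted, taking those that an earlier analysis of these data had found to go with lower values in a knockdown. Their larger share among genes lower in that knockdown, given next, follows from this choice and cannot serve as support. GGTCTAA or AGGTCTA was in the longest annotated 3′ UTR of 16.8% of genes lower in SIN3A knockdown and 7.52% of other tested genes. ACAGCCT or CAGCCTT was in 42.1% of genes lower in SIN3B knockdown and 26.0% of other tested genes. Of the 38 repair genes, RAD50, BARD1 and ATM held the first pair, 7.89% against 8.67% of tested genes, and none of them was called in SIN3A knockdown. The second pair was in 8, or 21.1%, against 28.2% of tested genes. MSH6 and FANCA were the called genes among them that were lower in SIN3B knockdown, and their sites are shown in 24-base windows with the sequence in capitals.
MSH6 (chromosome 2, base 2364 of a 3′ UTR of 3241 bases): ctctactaACAGCCTtttctatgg
FANCA (chromosome 16, base 555 of a 3′ UTR of 1052 bases): ctcagtctCAGCCTTgtgtttggt
BRCA2, FANCB, FANCM, MDC1 and NBN, the genes with the largest changes, held no such sequence of the knockdown in which they were called. The part of these sequences in the fall of MSH6 and FANCA was not tested.

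Repair genes outside the set were read from 8 further lists with 133 tested genes, chosen by pathway. SIN3A knockdown had 16 of them higher and 20 lower, SIN3B knockdown 23 higher and 17 lower, and SIN3A over SIN3B knockdown 17 higher and 20 lower. These calls were 27.1%, 30.1% and 27.8% of the 133, against 22.7%, 23.6% and 27.1% of all tested genes in the same 3 comparisons. Among tested genes above 10 CPM in control the shares were 30.6%, 34% and 37.4%. The 133 were not restricted to that level. For single lists the share ran from 16.7% to 35.3% in SIN3A knockdown and from 15.8% to 42.3% in SIN3B knockdown. The 133 genes had a median log2 fold change of 0.03 in SIN3A knockdown, 0.02 in SIN3B knockdown and 0.01 for SIN3A over SIN3B knockdown. Base excision repair genes had 1 of 17 higher and 5 lower in SIN3A knockdown, among them the glycosylases NEIL1 (-0.44) and MUTYH (-0.43), and 1 higher and 2 lower, with MUTYH at -0.49, in SIN3B knockdown. Nucleotide excision repair genes had 1 of 19 higher and 4 lower in SIN3A knockdown, and 0 higher and 3 lower in SIN3B knockdown. CETN2, a centrin that binds the damage sensor XPC, had 113.0 ± 20.8 CPM in SIN3A knockdown and 63.1 ± 3.18 CPM in SIN3B knockdown, against 79.1 ± 5.48 CPM in control. It was called higher in SIN3A knockdown (0.51), lower in SIN3B knockdown (-0.32) and different between them (0.84). The SIN3B knockdown call of CETN2 was lost, at -0.35 to -0.28, without control replicate 2 or 3 or any 1 SIN3B knockdown library. Mismatch repair genes had 0 of 12 higher and 2 lower in SIN3A knockdown and 3 higher and 1 lower in SIN3B knockdown.

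Other homologous recombination genes had 4 of 26 higher and 2 lower in SIN3A knockdown and 7 higher and 4 lower in SIN3B knockdown. MCM8, a helicase subunit, was at 152.2 ± 7.69 CPM in SIN3B knockdown, against 97.98 ± 3.98 CPM in control (0.64, adjusted p = 4.73e-06). ZSWIM7, a zinc-finger protein of homologous recombination, fell to 15.5 ± 0.96 CPM in SIN3B knockdown, against 26.0 ± 2.92 CPM in control (-0.75). Other Fanconi genes had 3 of 13 higher and 1 lower in each knockdown. USP1, which removes ubiquitin from FANCD2 and FANCI, rose in both, to 188.4 ± 14.4 CPM in SIN3A knockdown and 228.8 ± 16.4 CPM in SIN3B knockdown, against 147.1 ± 3.21 CPM in control. Further checkpoint genes had 4 of 19 higher and 2 lower in SIN3A knockdown and 5 higher and 3 lower in SIN3B knockdown. H2AFX, the histone whose phosphorylated form MDC1 binds, fell in SIN3A knockdown by 0.38 on the log2 scale. In the break-site ubiquitin response, with 1 of 12 higher and 3 lower in SIN3A knockdown and 2 and 2 in SIN3B knockdown, RIF1 (a partner of TP53BP1) rose by 0.64 in SIN3A knockdown and 0.90 in SIN3B knockdown. SHLD1, of the shieldin complex, fell by 1.28 in SIN3A knockdown at a level of 1.33 CPM, against 3.24 CPM in control, and its call was lost at -1.08 without control replicate 3. End joining genes had 2 of 15 higher and 1 lower in each knockdown, with XRCC4, the ligase IV cofactor, higher in both, by 0.72 in SIN3A knockdown and 0.56 in SIN3B knockdown. The SIN3B knockdown call of XRCC4 was lost, at 0.45 to 0.51, without control replicate 2 or 3 or SIN3B knockdown replicate 2 or 3, and at 0.23 once GC content and length were offset.

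**Figure D5:**
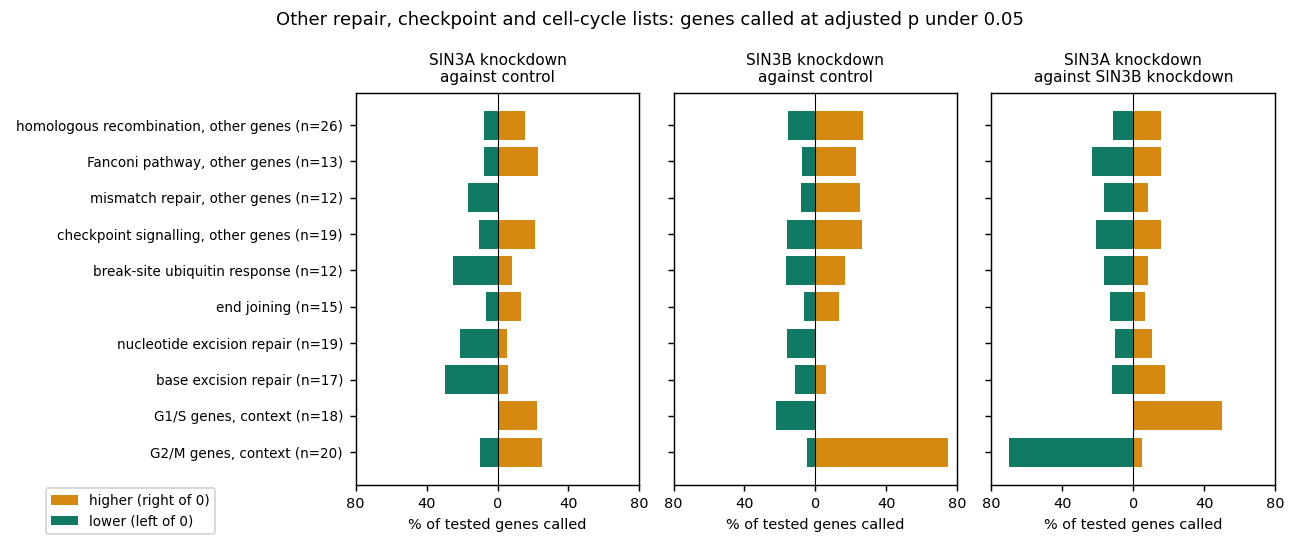
Share of tested genes called higher (orange, right of 0) and lower (green, left of 0) at an adjusted p under 0.05 in 8 lists of other repair and checkpoint genes and 2 lists of cell-cycle genes, for the 3 comparisons. The repair lists have bars on both sides in most panels, while the G2/M list has 15 of 20 genes higher in SIN3B knockdown.

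Between the knockdowns the G1/S list differed in the direction of its calls, and the G2/M list in their number. Of 18 genes of the G1/S transition, 4 were higher and 0 lower in SIN3A knockdown and 0 higher and 4 lower in SIN3B knockdown. That is 22.2% in each, near the 22.7% and 23.6% of all tested genes. CCNE1, cyclin E1, had 99.9 ± 4.12 CPM in SIN3A knockdown and 28.0 ± 1.37 CPM in SIN3B knockdown, against 49.6 ± 3.42 CPM in control. Of 20 genes of G2 and mitosis, 5 were higher and 2 lower in SIN3A knockdown and 15 higher and 1 lower in SIN3B knockdown, with a median log2 fold change of -0.02 in SIN3A knockdown and 0.42 in SIN3B knockdown. These calls were 35% of the list in SIN3A knockdown and 80% in SIN3B knockdown. PLK1, a mitotic kinase, was the 1 lower there, at -1.39, while the spindle checkpoint kinase TTK (1.19), the kinesin CENPE (1.02) and the cytokinesis factor ECT2 (0.92) rose. In SIN3A over SIN3B knockdown the G1/S list had 9 higher and 0 lower and the G2/M list 1 higher and 14 lower. These were 50% and 75% of the lists, against 27.1% of all tested genes. The part of cell-cycle phase in the changes of the repair genes was not tested. Exon bases of 23 of the 39 genes are shared with another gene. The library kit is stranded, but whether reads were counted by strand is not given in the sources used here. Of genes on the opposite strand, KLC1 shares 76.7% of the exon bases of XRCC3, TUBGCP4 28.7% of those of TP53BP1 and LRRC41 25.1% of those of RAD54L, and on the same strand TREX1 shares 27.9% of those of ATRIP, so the values of these 4 genes are uncertain too. FANCA shares 23.6% of its exon bases with ZNF276, FANCL 18.7% with VRK2 and ATR 16.4% with a pseudogene. MSH6 shares 16.2% with FBXO11, and MDC1 shares 8.69% with an antisense gene. All these overlaps are with the opposite strand, and the values of these genes are uncertain to that extent.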

How the data were processed

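Poly-A selected, stranded RNA libraries of HEK293T cells were grouped by their titles and source names, since every treatment text closes with the control siRNA. The authors deposited a table of read counts per Ensembl gene, made with Trimmomatic 0.36, HISAT2 2.1.0 on GRCh38 and HTSeq (no version given), per the submitters' processing notes, which also name DESeq2 1.20.0. The authors also deposited FPKM values for these genes and libraries, compared here within a gene only.

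The deposited counts were fitted with edgeR 4.0.16 under R 4.3.3, with TMM factors, filterByExpr (minimum count 10, minimum total 15) and the two-sided quasi-likelihood test in 1 fit of 9 libraries (6 residual degrees of freedom). The table holds 58734 genes, 31909 of them without a count, and 16686 were tested. P-values were Benjamini-Hochberg adjusted within each comparison at 0.05. The standard error is the size of the log2 fold change over the square root of F. CPM are TMM scaled. The fit was tested on simulated data. GC content, exon lengths and 3′ UTRs came from GENCODE 29. The members, lists and sequences searched were chosen with earlier results of these data known.

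All 39 genes are named. Called genes at 0.5 or more in absolute log2 fold change are given by library; some further called genes were chosen for this after their values were seen. From other lists, the 3 called genes with the lowest adjusted p in a comparison, or any at 1 or more, may be named.

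The 19 alternatives were RLE and upper-quartile factors, no filter, DESeq2 1.42.0, 6-library fits, a block for the replicate number, counts divided by 4, limma 3.58.1 on log2(FPKM + 1) and log2(FPKM + 0.1), offsets for GC content and exon length (mgcv 1.9.3), and leaving out each library. Figures were drawn with matplotlib 3.10.9.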

Additional observations from a re-analysis of the deposited data

How the results depend on the processing

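Of 37 calls of repair genes in the 3 comparisons, 16 held under all 19 alternatives and 21 were lost in at least 1; no direction reversed. For SIN3A knockdown against control, members higher were 3 with upper-quartile factors, with the replicate block and with limma on FPKM at either pseudocount, and 3 to 7 when 1 library was left out. Members lower there were 5 with upper-quartile factors, 1 in the 6-library fit, 1 with limma at either pseudocount, and 1 to 3 with 1 library left out. For SIN3B knockdown against control, members higher were 14 in the 6-library fit, and members lower were 3 to 8 with 1 library left out. In that 6-library fit NBN, FANCL, BRIP1, BARD1, TOPBP1, ATR and XRCC2 also passed as higher, and RAD54L and RAD51C as lower. For SIN3A over SIN3B knockdown, members lower were 4 to 8 with 1 library left out. Over all genes, 1175 to 1737 were lower in SIN3A knockdown and 1328 to 2466 higher in SIN3B knockdown with 1 library left out. The cause of these shifts was not tested. Fits without a library or with 6 have fewer samples. The fit of 9 libraries takes its spread for each gene over all 3 groups. P-values of SIN3B knockdown against control therefore also rest on the SIN3A knockdown libraries, whose pairs differed most. Same-numbered libraries of different groups correlated at -0.03 to 0.04, so the numbers were not taken as pairs, and the replicate block ended the SIN3A knockdown calls of BRCA1, BRIP1 and FANCI. Low counts limit FANCF, RAD50 and RAD54B. RAD50 and RAD54B also share 79.7% and 59.1% of their exon bases with another gene on the same strand.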
